A study of Homo sapiens with 4 samples.

Results

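The SMAR1 peaks that lay away from promoters, outside protein-coding genes and on a T-G repeat were 686 of the 5709 peaks in HCT116 p53+/+ cells and 867 of the 8217 peaks in HCT116 p53-/- cells, or 1553 of 13926 in both lists. A peak was taken when it lay on chromosomes 1 to 22 or X, when its centre was more than 1 kb from every annotated TSS, and when no protein-coding gene ran across that centre. Its hg19 sequence also had to hold an unbroken alternation of T and G (A and C on the other strand) of at least 12 bp, and no such alternation of T and C (A and G). These peaks are called distal T-G peaks below, and the alternation is called the T-G run. They made up 12% of the HCT116 p53+/+ list and 10.6% of the HCT116 p53-/- list, and 24.6% and 21.4% of the 2790 and 4044 peaks that met the position criteria. A further 8 and 3 peaks without complete sequence in the assembly were not classified.

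The cell line HCT116, derived from a human colorectal carcinoma, was grown here without treatment, with p53 (HCT116 p53+/+) or lacking it (HCT116 p53-/-). Chromatin was pulled down with an anti-SMAR1 antibody and sequenced, with 1 library for each cell line. The IgG libraries of both lines were not analysed here, and the sources used here do not say whether they served as the control of the peak caller, nor how reads that match many places were treated. Both bear on what a peak over a repeat and its score stand for. Each cell line had 1 library, so no difference between the lines has a replicate check and no p-value was computed. According to the methods of the study, the HCT116 p53-/- library was the deeper of the pair, and the peak lists hold no reads, so the depth behind a single peak is unknown. Each peak carries the score of the peak caller MACS, computed as -10 log10(p) and not scaled for depth, so a score has no common scale across the lists and differences were taken within each list.

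SMAR1, also named BANP, is a protein of the nuclear matrix that binds matrix attachment regions, which are commonly rich in A and T, and it is known to interact with p53 and to recruit histone deacetylases. BANP is also known to bind a CGCG-containing element at promoters. Alternating T-G sequence is the commonest dinucleotide microsatellite of the human genome. It can adopt the left-handed Z-DNA form under negative supercoiling, and its length changes readily by slippage during replication. Run lengths given here are those of hg19, since those of the cells were not measured.

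The 12 sequences printed next show what a distal T-G peak consists of, with the longest T-G run of the peak in capitals and the rest of the peak in lower case. All are the plus strand of hg19 over the whole peak. The first 5 are the HCT116 p53+/+ peaks with the highest scores, the next 4 are from the highest scores in HCT116 p53-/-, and the last 3 are from the highest-scoring peaks found in both lists.
chr18:11937406-11937446: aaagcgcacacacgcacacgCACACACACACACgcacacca
chr2:150968413-150968450: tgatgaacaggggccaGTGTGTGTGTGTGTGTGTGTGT
chr22:16234006-16234041: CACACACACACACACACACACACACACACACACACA
chr3:164901410-164901446: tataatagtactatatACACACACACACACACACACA
chr5:65528552-65528586: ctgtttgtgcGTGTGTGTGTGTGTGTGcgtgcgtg
chr14:56571006-56571054: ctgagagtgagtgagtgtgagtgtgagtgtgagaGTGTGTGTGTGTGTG
chrX:48155037-48155075: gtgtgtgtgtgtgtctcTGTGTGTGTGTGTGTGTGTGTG
chr9:103595665-103595703: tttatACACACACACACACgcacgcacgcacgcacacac
chr1:92067639-92067761: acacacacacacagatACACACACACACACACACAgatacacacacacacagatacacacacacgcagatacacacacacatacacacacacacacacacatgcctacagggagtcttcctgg
chr3:5378158-5378193: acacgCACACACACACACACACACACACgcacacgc
chr3:1989993-1990037: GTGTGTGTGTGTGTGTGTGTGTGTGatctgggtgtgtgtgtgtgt
chr1:56394157-56394195: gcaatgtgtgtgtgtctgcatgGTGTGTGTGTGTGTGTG

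Distal T-G peaks were short and consisted mainly of the repeat. Their median length was 50 bp in HCT116 p53+/+ and 51 bp in HCT116 p53-/-, and in each line 8 of 10 fell between 38 and 82 bp and between 40 and 86 bp, respectively. The longest T-G run took up a median of 63.9% and 64.8% of the peak. In 60 peaks (8.75%) of HCT116 p53+/+ and 64 (7.38%) of HCT116 p53-/- the peak held nothing but the run. The middle of the run was a median of 6.50 bp from the peak centre in both lines, and within 10 bp of it in 70.0% and 70.5% of peaks. The centre itself was inside the run in 81.6% (95% Wilson interval 78.6 to 84.4) and 79.7% (76.9 to 82.2) of peaks. These and all later intervals cover counting error only. A run longer than the rest of its peak must hold the centre, and this was so in 65.7% and 65.9% of peaks. The closeness of run and centre thus follows in part from the lengths of both. A single run was present in 574 of the 686 peaks and in 697 of the 867, while 1 and 13 peaks held 4 runs or more. The T-G strand was the plus strand in 48.4% and 51.1% of peaks, and both intervals include equal use of the strands.

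**Figure D1:**
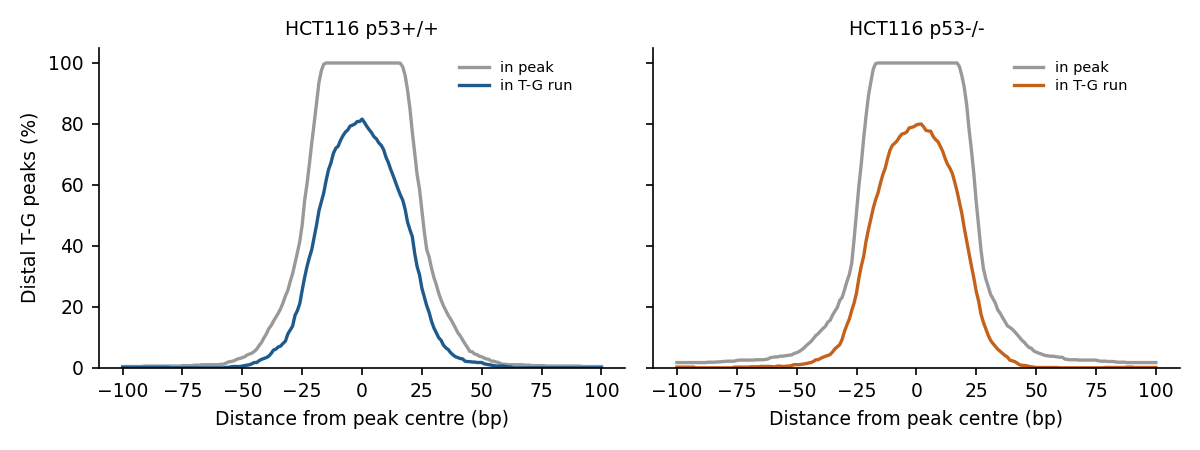
Share of distal T-G peaks (%) in which the base at each distance from the peak centre (bp) lies in the peak (grey line) or in its longest T-G run (coloured line), for both cell lines. The run reached 81.6% and 79.7% of peaks at the centre, fell to 42.9% and 45.4% at 20 bp on the left, and was nearly gone at the outer positions. Every peak holds a run by definition.

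The peak with the most runs was found in both lists, on chromosome 3 between 5280832 and 5281368. It held 23 runs and 326 bp of T-G sequence in HCT116 p53+/+ (score 59.07, length 509 bp) and 22 runs in HCT116 p53-/- (score 141.93, length 531 bp), although its longest run was 20 bp. Because one peak of this kind covers many runs, it weighs in any count of runs. Counts of runs covered by distal T-G peaks are given below with and without peaks of 4 or more runs. Those of runs covered in both lines leave such peaks out, and those of runs with a peak of any kind include them.

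The longest runs of distal T-G peaks were much longer than the runs common in the genome. The peaks enter with 1 run each, the longest, whereas every run of the genome is counted, and a longer run is a larger target. Over the whole run as it stands in hg19, the median was 37 bp in both lines (95% interval 35 to 38 in HCT116 p53+/+ and 36 to 38 in HCT116 p53-/-). The 87100 T-G runs in hg19 that met the same position criteria had a median of 17 bp. Runs of 40 bp or more made up 42.3% (38.6 to 46.0) and 42.4% (39.2 to 45.8) of the peaks, and runs under 20 bp made up 15.9% and 17.8%. The most populated bin of 4 bp was 40 to 43 bp, with 17.9% and 14.9% of the peaks, against 4.13% of all distal runs. In contrast, 41.8% of all distal runs were 12 to 15 bp long, against 7% and 9% of the peaks. Few peaks stood at the 12 bp limit, as 12 and 13 had a longest run of exactly 12 bp (median scores 56.37 and 73.09). A further 15 and 22 distal peaks outside coding genes had a longest run of 11 bp and so were left out (median scores 64.53 and 77.85). At the limit of 1 kb, the peaks nearest to a TSS were 1046 and 1015 bp away, with scores of 88.35 and 52.74. Those just left out were 999 and 993 bp away, with scores of 53.04 and 56.53.

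**Figure D2:**
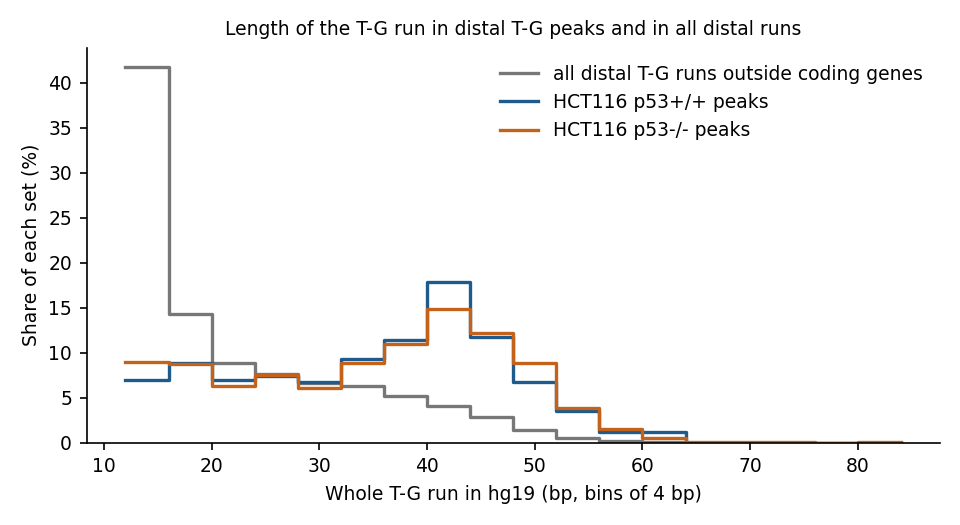
Distribution of the whole T-G run in hg19 (bp, bins of 4 bp) as a share of each set (%), for the 87100 distal runs outside coding genes (grey) and the distal T-G peaks of each line. The genome's runs pile up at 12 to 15 bp (41.8%), and the peaks of both lines are most frequent at 40 to 43 bp (17.9% and 14.9%).

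Seen from the repeats, few carried a peak, and the share grew with length. Of the 87100 distal T-G runs outside coding genes, 961 (1.10%, 1.04 to 1.17) were covered for at least 12 bp by a HCT116 p53+/+ peak of any kind and 1426 (1.64%, 1.56 to 1.72) by a HCT116 p53-/- peak. Counting only distal T-G peaks, the numbers were 828 (0.951%) and 1112 (1.28%). Leaving out those with 4 or more runs gave 805 (0.924%) and 1019 (1.17%). On that count the share was 0.441% and 0.590% at 12 to 19 bp, and 5.24% and 7.50% from 50 bp. Runs of 12 to 15 bp carried a peak of any kind in 0.469% (0.404 to 0.545) and 0.840% (0.751 to 0.939) of cases. The share was 1.01% and 1.63% at 28 to 31 bp, and it was 3.87% (3.28 to 4.55) and 4.42% (3.80 to 5.14) at 40 to 43 bp. At 50 to 59 bp it reached 4.97% and 7.98%. Of the 79 runs of 60 to 81 bp, 8 (10.1%, 5.22 to 18.7) and 10 (12.7%, 7.02 to 21.8) had a peak. The intervals of the shortest and of the longest runs did not overlap in either line. A run of 12 bp had to be covered entirely to count, and a longer run only in part. The part of this rule in the increase was not tested. A similar increase was seen for the 64951 distal T-G runs inside coding genes, where the share went from 0.448% and 0.708% at 12 to 15 bp to 3.35% and 3.92% at 40 to 43 bp.

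**Figure D3:**
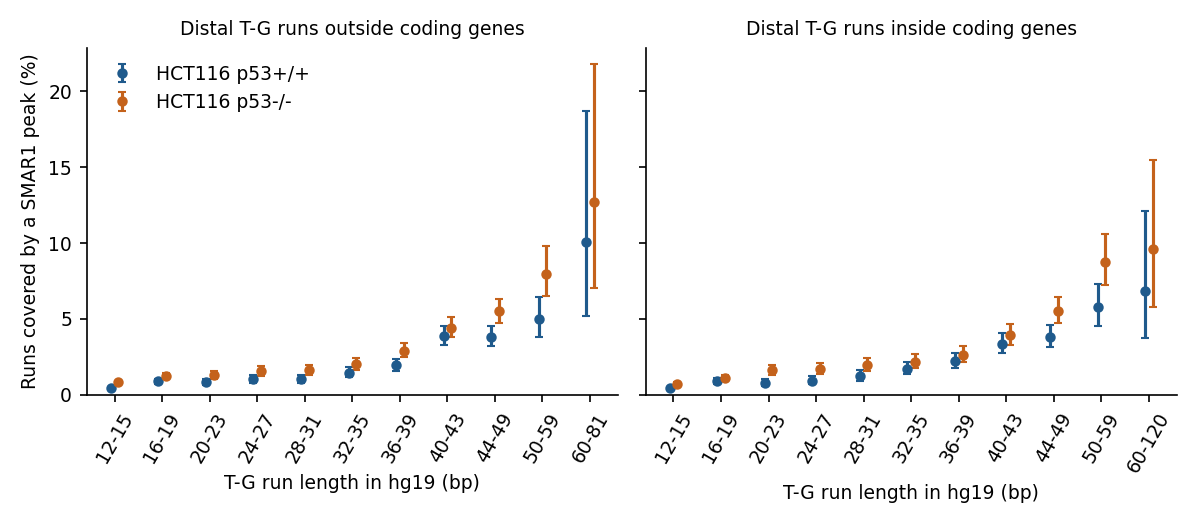
Share of distal T-G runs covered for at least 12 bp by a SMAR1 peak (%, points) against run length in hg19 (bp), outside (left) and inside (right) coding genes, with 95% Wilson intervals as bars. Outside coding genes the share goes from 0.469% and 0.840% for the shortest runs to 10.1% and 12.7% for the longest, with wide intervals at the longest lengths.

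Whether reads could be placed at such repeats was examined by counting, in hg19, the copies of windows of 36 bases; the read length is not given in the sources used here, so this length is a choice. The windows just outside both edges of the peak were unique in 88.9% (86.4 to 91.1) of the HCT116 p53+/+ peaks and 91.5% (89.4 to 93.1) of the HCT116 p53-/- peaks. The values were 90.3% and 92.8% for distal T-G peaks inside coding genes, 81.9% in both lines for peaks with a T-C run outside coding genes, and 70.7% and 80.8% for peaks with neither repeat there. The window in the middle of the peak was unique in 37.6% and 35.2% of distal T-G peaks, and it had more than 1000 copies in 31% and 34.1%. The windows of pure repeat had 97388 or 93043 copies, depending on the base they began with. The middle became less often unique as the run grew. This follows in part from the window, since 36 bases at the centre of a longer run can be pure repeat. It was unique in 86.2% and 89.6% of peaks with a run of 12 to 19 bp, in 44.3% and 38.8% at 20 to 39 bp, in 14.2% and 10.9% at 40 to 49 bp, and in 6.90% and 2.41% from 50 bp. The part that placement of reads has in the lengths of these peaks was not tested.

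The 2 peak lists had few distal T-G peaks in common. In HCT116 p53+/+, 35 of the 686 (5.10%, 3.69 to 7.01) had 1 bp or more in common with peaks of HCT116 p53-/-, against 20.8% of all 5463 classified peaks of that list. In HCT116 p53-/-, 38 of the 867 (4.38%, 3.21 to 5.96) shared sequence with a HCT116 p53+/+ peak, against 13.4% of all 8124. In 34 cases the peaks of both lines were distal T-G peaks. Distal T-G peaks inside coding genes had similar shares, 6.75% (4.97 to 9.09) and 5.43% (4.02 to 7.32). Peaks with a T-C run outside coding genes overlapped in 27.5% (24.9 to 30.3) and 12.1% (10.8 to 13.5) of cases, and those with neither repeat in 10.2% (8.54 to 12.2) and 12.9% (10.7 to 15.5). The intervals of these last classes lay above those of the distal T-G peaks in both lines. Their peaks were also longer, which makes a shared base easier. Medians were 55 and 60 bp with a T-C run and 69 and 55 bp with neither repeat, against 50 and 51 bp. The shares over all peaks also include peaks near a TSS. The part of peak length in the overlap was not tested.

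**Figure D4:**
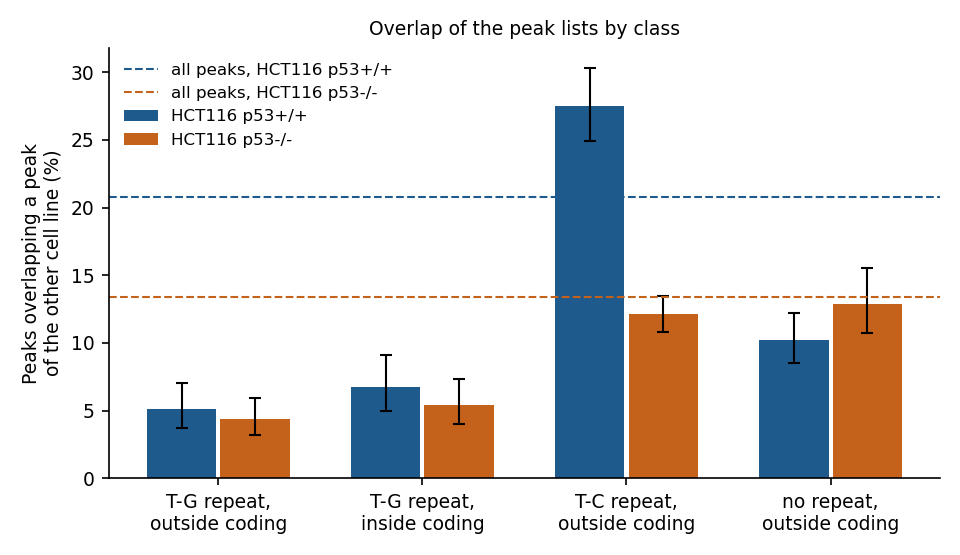
Share of peaks that have 1 bp or more in common with a peak of the other cell line (%, bars, with 95% Wilson intervals) for 4 classes of distal peaks, beside the share over all classified peaks of each list (dashed lines, 20.8% and 13.4%). Both classes with a T-G repeat sit at 4.38% to 6.75%, under both lines and under the other 2 classes. Peak lengths differ between the classes.

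The overlap was also counted by run length. Values of the 2 lines are not independent here, as 34 of the overlaps are the same pairs seen from each list. Among peaks with a run of 12 to 19 bp, 10 of 109 (9.17%, 5.06 to 16.1) and 13 of 154 (8.44%, 5.00 to 13.9) overlapped the other list. The shares were 3.14% (1.66 to 5.85) and 2.61% (1.38 to 4.88) at 20 to 39 bp, 6.03% and 4.91% at 40 to 49 bp, and 3.45% and 2.41% from 50 bp. The intervals of the 2 shortest classes overlapped in HCT116 p53+/+ and did not in HCT116 p53-/-, and those of the longer classes overlapped each other in both lines. The same was counted over runs, leaving out peaks with 4 or more runs. The 111 and 157 peaks with 2 or 3 runs stayed in. Runs of the same peak were thus counted separately, and the intervals over runs are too narrow. Of 216 runs of 12 to 19 bp covered by a distal T-G peak of HCT116 p53+/+, 18 (8.33%, 5.34 to 12.8) were also covered by one of HCT116 p53-/-, while such peaks covered 0.590% of all runs of that length. At 20 to 39 bp, 11 of 299 (3.68%, 2.07 to 6.47) were covered in both, against 1.2% of all runs. Within that class, a split made after the values were seen gave 8 of 108 (7.41%, 3.80 to 13.9) at 20 to 27 bp, against 0.934% of all runs, and 3 of 191 (1.57%, 0.536 to 4.52) at 28 to 39 bp, against 1.44%. At 40 to 49 bp, 13 of 232 (5.60%, 3.30 to 9.35) were covered in both, against 4.17% of all runs. From 50 bp, 2 of 58 (3.45%, 0.951 to 11.7) were covered in both, against 7.50% of all runs. Taken as if runs were independent, the interval lay above the general share at 12 to 19 bp and at 20 to 39 bp. It included that share at 40 to 49 bp and from 50 bp. In the split made afterwards, the interval lay above the share at 20 to 27 bp and included it at 28 to 39 bp. An excess of shared runs was thus not resolved for runs of 40 bp or more. A limit within 20 to 39 bp was not tested.

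The 5 overlapping pairs with the highest scores, ranked by the lower score of each pair although the lists have no common scale, lay between genes or in lncRNA genes. The pair with the highest lower score was on chromosome 3 from 5378158 to 5378193, 117 kb downstream of EDEM1, a factor for the degradation of misfolded glycoproteins. Its scores were 101.24 and 115.40, HCT116 p53+/+ first here and for the other pairs. Its run was 23 bp. The pair on chromosome 5 at 65528552 was 49.1 kb downstream of SREK1, a splicing regulator, with scores of 150.52 and 89.84 and a run of 17 bp. On chromosome 3 at 1989993, 150 kb upstream of the contactin gene CNTN4, the scores were 75.29 and 81.61 and the run was 32 bp. The pair on chromosome 1 at 56394157 lay within the annotated lncRNA genes LINC01755 and LINC01753, with scores of 74.85 and 116.63. The fifth was on chromosome X at 56545795, 44.2 kb upstream of UBQLN2, which codes for a ubiquilin, with scores of 82.34 and 73.65. In each of these pairs the windows at both edges were unique in hg19, and the runs, 17 to 32 bp, were shorter than the median of 37 bp.

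Scores of distal T-G peaks stood on opposite sides of the rest of the list in the 2 lines. In HCT116 p53+/+ the median score was 73.66 (71.95 to 73.66), against 67.73 for all other peaks, a difference of 5.93. In HCT116 p53-/- it was 66.65 (65.06 to 68.62), against 74.44 for the others, a difference of -7.79. As ranks within a list, the median distal T-G peak stood at percentile 60.5 in HCT116 p53+/+ and 39.7 in HCT116 p53-/-. High scores were as frequent as in the whole list in HCT116 p53+/+, where 114 peaks (16.6%, 14.0 to 19.6) had a score of 100 or more, against 16.7% of all peaks. They were rarer in HCT116 p53-/-, where this held for 42 peaks (4.84%, 3.60 to 6.48), against 20.4% of all peaks. Distal T-G peaks inside coding genes had the same pattern, with medians of 73.66 and 65.06 and 17.8% and 3.67% of scores at 100 or more. Peaks with a T-C run outside coding genes had medians of 67.78 and 75.33.

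**Figure D5:**
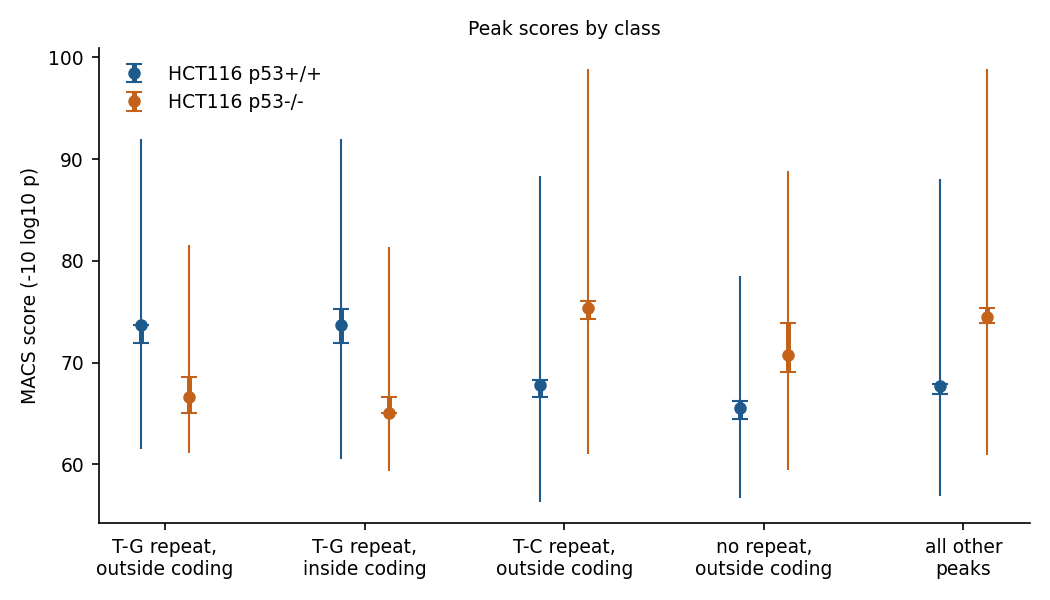
MACS score (-10 log10 of the p-value) by class of peak, with the median (point), its 95% order-statistic interval (thick bar) and the middle 50% of peaks (thin line). In HCT116 p53+/+ both T-G classes have a median of 73.66, above the 67.73 of all other peaks, and in HCT116 p53-/- they have 66.65 and 65.06, below the 74.44 of all other peaks.

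Many of these scores were identical. In HCT116 p53-/-, 145 distal T-G peaks (16.7%) had the score 65.06 and 136 (15.7%) had 81.61, against 4.08% and 4.62% of the other peaks. The 5 commonest scores accounted for 46.3% of the distal T-G peaks of HCT116 p53-/- and for 24.9% of those of HCT116 p53+/+, where the commonest, 91.96, was held by 50 peaks (7.29%) against 2.05% of the others. With so many ties, the scores form steps rather than a continuous scale. Across peaks, which are not independent replicates, the score varied little with the length of the run (Pearson's correlation 0.05 and Spearman's 0.07 over 686 peaks, and -0.13 and -0.06 over 867). Nevertheless, in HCT116 p53-/- the 42 peaks with a score of 100 or more had a median run of 20 bp (16 to 23), against 35 bp (34 to 36) for all, measured inside the peak. In HCT116 p53+/+ the median was 34 bp both for the 114 high-scoring peaks and for all. Shorter peaks tended to have higher scores by rank (Spearman's correlation -0.48 and -0.35), with Pearson's correlation at -0.28 and 0.00.

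The 5 highest scores of HCT116 p53+/+ ranged from 150.52 to 191.15. The top peak was on chromosome 18, 29.1 kb upstream of MPPE1, a phosphoesterase that remodels GPI anchors, and had a run of 13 bp. The next, on chromosome 2 (score 164.99), was 356 kb downstream of RND3, and the peak covered 22 bp of a run of 41 bp. Peaks downstream of POTEH, SLITRK3 and SREK1 shared the score 150.52. The SLITRK3 peak was 3.08 kb from the gene, which codes for a synaptic adhesion protein. The POTEH peak, on chromosome 22, was pure repeat, and its left edge window had 3 copies in hg19. Of the 5, the SREK1 peak alone overlapped a HCT116 p53-/- peak.

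In HCT116 p53-/- the 5 highest scores ranged from 169.50 to 192.42. The 2 highest, both 192.42, were on chromosome 14, 13.5 kb upstream of PELI2, a ubiquitin ligase of Toll-like receptor signalling, and on chromosome X, 28.2 kb downstream of SSX1, a cancer-testis antigen. The left edge window of the SSX1 peak had 4 copies in hg19. The others were 195 kb upstream of PLPPR1 (score 176.89), 1084 kb upstream of the glypican gene GPC5 (170.23) and 76.4 kb downstream of CDC7, a kinase of replication origins (169.50). The peak nearest to GPC5 was 314 bp long with 9 runs, and the CDC7 peak had 4. None of these 5 overlapped a HCT116 p53+/+ peak. As percentiles of the whole lists, the highest scores stood at 97.9 and 94.2, so higher scores in both lists belonged to other classes of peaks.

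The longest run was in HCT116 p53-/-, an 81 bp run on chromosome 5 of which a peak from 132019437 to 132019509 covered 66 bp. This peak lay 1.10 kb downstream of IL4, the cytokine of type 2 helper T cells, and had a low score, 51.34 (percentile 3.28). The next in that line was a run of 72 bp on chromosome 10, 57.4 kb downstream of TRUB1, a pseudouridine synthase (score 56.53). In HCT116 p53+/+ the 2 longest runs were both 62 bp. One was on chromosome 18, 798 kb upstream of the cadherin gene CDH7 (score 132.36), and the other on chromosome 7, 78.1 kb downstream of ATP6V0E2, a subunit of the vacuolar proton pump (score 67.86). All 4 had unique windows at both edges, and none overlapped a peak of the other line.

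The surroundings of the peaks were compared with those of the 84600 distal T-G runs outside coding genes that had no peak in either line. The 500 bp on each side of the run were 60.5% A+T in both lines (59.9 to 61.1 in HCT116 p53+/+), against 61.6% for runs without a peak, a difference of -1.10 percentage points. Restricted to runs of 30 bp or more, the difference was -0.70 with intervals that included 0, so a higher A+T content around the peaks was not seen in either comparison. An alternating T-A run of at least 8 bp lay within 30 bp of the T-G run in 29 peaks (4.23%, 2.96 to 6.01) of HCT116 p53+/+ and 44 (5.07%, 3.80 to 6.74) of HCT116 p53-/-. It did so for 15.5% of the runs without a peak. By length, the shares were 4.59% and 3.90% against 17.3% at 12 to 19 bp, and 2.96% and 5.37% against 11.5% at 30 to 39 bp. From 40 bp they were 4.48% (2.64 to 7.52) and 4.62% (2.90 to 7.27) against 7.03% (6.47 to 7.65), where the intervals overlapped. T-A runs were thus rarer beside the peaks than beside other runs of the same length up to 39 bp.

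Positions relative to genes differed little from those of runs without a peak. The median distance to a TSS was 21.2 and 21.4 kb, against 21.4 kb. The median distance to a coding gene was 102 kb (83.7 to 118) and 101 kb (86.1 to 116), against 115 kb (113 to 117). LncRNA genes, which code for no protein and often lie in such regions, held 29.2% (25.9 to 32.7) and 25.7% (22.9 to 28.7) of the peaks, against 27.7% of runs without a peak. The p53 half-site consensus, searched on both strands within the peak and 50 bp on each side, was present in 16 peaks (2.33%, 1.44 to 3.75) and 24 peaks (2.77%, 1.87 to 4.09). Over all classified peaks, of any length, it was present in 2.67% and 3.18%. The core CTCGCGAG of the promoter element, which reads the same on both strands, was in 0 of the 686 and 0 of the 867 peaks. Taking 3 peaks as the most that a count of 0 allows, the shares could be up to 0.437% and 0.346%, and the Wilson upper limits were 0.557% and 0.441%. It was also absent or rare in the other distal classes, with 0 of 578 and 0 of 736 T-G peaks inside coding genes, 0 of 1051 and 0 of 2407 peaks with a T-C run outside coding genes, and 2 of 1046 and 4 of 767 with neither repeat there. It was in 2.32% and 2.63% of all peaks, and in 15.5% of the peaks within 1 kb of a TSS in both lines, which were of other lengths.

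Distal T-G peaks were spread over all chromosomes examined. There were 7.88 (7.31 to 8.49) peaks for each 1000 distal T-G runs in HCT116 p53+/+ and 9.95 (9.32 to 10.6) in HCT116 p53-/-. In HCT116 p53+/+, chromosome 15 had the highest value (12.5, 8.63 to 18.2) and chromosome 10 the lowest (4.80, 3.07 to 7.48). In HCT116 p53-/-, chromosome X had 12 (9.40 to 15.2) and chromosome 7 had 6.24 (4.26 to 9.13). Chromosome 15, highest in HCT116 p53+/+, had 7.89 (4.93 to 12.6) in HCT116 p53-/-, and chromosome 10 had 10.9 (8.07 to 14.6) there. In HCT116 p53+/+, chromosome X had 8.47 (6.36 to 11.3) and chromosome 7 had 9.36 (6.86 to 12.8). The chromosomes named are the extremes of each line, picked from all those examined. Runs of every length count alike in these values. Of the 2849 windows of 1 Mb that held a distal T-G run, 1125 held a peak, and 182 held peaks of both lines. Windows were not counted for each line alone, so the 182 cannot be read as much or little sharing. The most crowded window, on chromosome X from 143000001 to 144000000, held 7 peaks, 2 of HCT116 p53+/+ and 5 of HCT116 p53-/-, among 59 runs and contained no protein-coding gene. A window on chromosome 2 from 229000001, with the genes PID1 and SPHKAP, and one on chromosome X from 34000001, with FAM47A, FAM47B and TMEM47, each held 6. The median window had 27 runs.

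Few genes of the lists examined lay within 50 kb of a distal T-G peak. Of 25 canonical p53 targets, 1 had such a peak in HCT116 p53+/+ and 0 in HCT116 p53-/-, against 1.99% and 2.86% of all 20098 protein-coding genes. It was CCNG1, which codes for cyclin G1, with a peak 4.17 kb upstream on chromosome 5 (score 59.29, run 34 bp). Of 25 genes of the Wnt pathway, the pathway that drives most colorectal carcinomas, 0 had a peak in HCT116 p53+/+ and 1 in HCT116 p53-/-. It was TCF7L2, a transcription factor that partners with beta-catenin, with a peak 37 kb upstream (score 54.68, run 18 bp). Of 15 partners and targets of SMAR1, 0 had a peak within reach in either line. Of 24 well-known lncRNA genes found in the annotation, 2 had a peak in HCT116 p53+/+ and 1 in HCT116 p53-/-, against 3.64% and 4.14% of 18592 lncRNA genes. HULC, a lncRNA first described in liver cancer, held 2 peaks of HCT116 p53+/+ (scores 66.78 and 71.95) and 1 of HCT116 p53-/- (65.06) at other positions within its long annotated span. CASC15 held 1 of HCT116 p53+/+ (64.17). With 0 to 2 genes counted per list, a departure from the genes at large could not be seen at these list sizes. Within 5 kb upstream of a miRNA gene there were 5 distal T-G peaks, 2 of HCT116 p53+/+ and 3 of HCT116 p53-/-, and each of these genes carries a clone-based name in the annotation.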

How the data were processed

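SMAR1 ChIP-seq was analysed from 1 anti-SMAR1 library of HCT116 p53+/+ and 1 of HCT116 p53-/- cells. Per the methods and processing notes of the study, the authors trimmed reads with Cutadapt 1.2.1, aligned them to hg19 with Bowtie2 2.2.1, converted alignments with SAMtools and called peaks for each library with MACS 1.4.2. The sources differ on the version of SAMtools. The deposited lists give start, end and a MACS score for every peak, which the authors did not scale for depth (-10 log10 of the p-value). The authors also filtered peaks on fold enrichment, and the lists hold no such column, so this filter was not varied. Only peaks that passed it were seen here, and reads that map to many places of the genome are placed with less certainty by any aligner.

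Positions were converted to 1-based coordinates and compared with GRCh37 (hg19) and with the GENCODE annotation (release 44, lifted to this build), which postdates the study. A TSS is the start of any annotated transcript. T-G runs were searched on both strands, and windows of 36 bases were counted exactly in the whole assembly on both strands. No test was run, as each group has 1 library. Shares have 95% Wilson intervals and medians have binomial order-statistic intervals, over peaks of 1 library. The functions for runs, distances and windows were tested on simulated data, and 100% of 2000 items (500 for windows) were correct.

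The group of peaks and the gene lists were chosen with earlier results of these data known. Regions named are the 5 highest scores per line, the 5 overlapping pairs with the highest lower score, the 2 longest runs per line, peaks next to the 12 bp and 1 kb limits, the most crowded windows of 1 Mb (3, as 2 tied), peaks inside or near a listed gene and peaks within 5 kb upstream of a miRNA gene. The peak with the most runs was named after its values were seen. Some regions that the rule covers are not reported here. Alternatives were other limits on run length, score and distance, other overlap rules, other flanks and windows, and ranks of the score. The software was matplotlib 3.10.9, numba 0.67.0, pysam 0.24.0, statsmodels 0.14.6, scipy 1.17.1, pandas 2.3.3 and numpy 2.4.6 under Python 3.11.15.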

Additional observations from a re-analysis of the deposited data

Results flagged for a closer look

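The median score of distal T-G peaks was above that of the other peaks in HCT116 p53+/+ (by 5.93) and below it in HCT116 p53-/- (by -7.79). It is listed because the 2 cell lines moved in opposite directions. The difference between the lines was not tested, as each had 1 library. The lines also differed in library depth, the scores are not scaled for depth, and ties are more frequent in HCT116 p53-/- (46.3% of distal T-G peaks in the 5 commonest scores, against 24.9%). The part of depth in the result was not tested.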

How the results depend on the processing

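Of the 54 alternatives computed, 29 stayed within the interval of the reported value (counts within 1.5 times) and 25 moved out of it. The 25 include the percentile ranks of the score in both lines. These were set against an interval in score units, so that their place among the 25 says nothing about stability. Only the score and A+T differences could change direction, and neither did. Counts, shares and medians have no sign to change. For HCT116 p53+/+ and HCT116 p53-/-, respectively, requiring a score of 100 or more left 114 and 42 distal T-G peaks. Of these, 0.877% (0.155 to 4.80) and 2.38% (0.422 to 12.3) overlapped a peak of the other line scoring 100 or more. These intervals are wide, scores are not scaled for depth, and the same share over all peaks was not computed. The limit of 100 also lowered the share of runs with a peak to 0.152% and 0.154%. The median run in the peak fell to 20 bp in HCT116 p53-/- alone. Taking the whole run in hg19 in place of the part inside the peak gave a median of 37 bp in both lines. Runs with a peak made up 1.19% and 1.80% when 1 bp had to be covered, 1.78% and 2.53% of runs of 20 bp or more, and 0.951% and 1.28% when only distal T-G peaks counted, an alternative added after seeing the data. The score difference was 12.07 and -11.70 as percentile ranks, and 6.88 and -5.23 among peaks of 100 bp or less, also added afterwards. The A+T difference with flanks of 250 bp was -1.80 in HCT116 p53+/+ and -1.60 in HCT116 p53-/-. For runs of 30 bp or more it was -0.70 in both lines. Windows at both edges were unique in 85.3% and 88.2% with 31 bases and in 93.6% and 96.0% with 50 bases. The causes were not tested beyond what these definitions set. Leaving out a replicate was not possible with 1 library per line. No paired analysis was possible because no result comes from a test. The lists give no reads, so depth limits each call to an unknown extent.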
